A study of Mus musculus with 24 samples.

Results

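The mitotic spindle and centromere genes described here are 42 rows, chosen by gene name, of a count table that holds 54532 genes of the mouse. They were picked as genes that act in building the spindle, in holding chromosomes on it and in cutting the cell apart, and the kinesin motors with Kif names were kept out. Earlier results of these data were known when the list was chosen. Shares of all genes set beside its counts are therefore description and not independent support. A few members, such as Mki67, Top2a, Foxm1 and Jpt1, do not belong to the spindle or the centromere itself. All 42 genes were found in the table, and all 42 passed the filter on low counts.

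At the start of mitosis, cyclin B with Cdk1 drives the cell into division, and the Aurora and Polo-like kinases shape the spindle. Kinetochores, built on chromatin that carries the histone variant Cenpa, attach chromosomes to microtubules, and the spindle checkpoint holds the cell until each chromosome is attached. Cdc20 then switches on the anaphase promoting complex, which destroys cyclin B, and the central spindle guides cytokinesis. Transcripts of these genes are made mainly in the G2 and M phases, so their level in a tumour is widely used as a sign of dividing cells. In bulk tissue, fewer dividing cells and less RNA per cell cannot be told apart.

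Bulk RNA sequencing covered 24 mouse samples in 4 groups of 6, named PBS, GEM, IGEL and LIGEL, all at day 24. PBS, buffered saline, is the control, and the title of the study names losartan, an angiotensin receptor blocker, and a nanocarrier for chemo-immunotherapy of pancreatic cancer. The labels do not spell out GEM, IGEL or LIGEL and give no genotype, strain, age, dose or tumour model for any group, so no agent is assigned to a group here. Separate animals for the 6 samples of a group are not stated, so p-values measure the spread between these samples, which may be technical in part. The source label of each sample reads pancreatic tumour, while the titles say muscle. Skeletal muscle genes took 0.0324% of counts in IGEL replicate 4 and at most 0.00421% in the other 23 libraries.

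Library totals ranged from 27.1 to 40.5 M counts. PBS replicate 5 stood apart from all other libraries: 45.8% of its counts came from 30 genes of acinar cells, which make digestive enzymes, against 0.00616 to 19.4% elsewhere. The 42 genes took 0.0364% of its counts (Wilson 95% interval 0.0357 to 0.0372%, counting error only) and 0.0672% of its counts outside the acinar genes. That library was the lowest of the 24 for 41 of the 42 genes, Psrc1 being the exception. For each gene the mean of the other 5 PBS libraries was 4.09 to 14.5 times its value. Every comparison with PBS is therefore given with all 24 libraries and without PBS replicate 5.

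In the other 5 PBS libraries the 42 genes together took 0.438 to 0.817% of counts (median 0.584%). The share was 0.267 to 0.554% in GEM (median 0.373%), 0.244 to 0.389% in IGEL (median 0.348%) and 0.234 to 0.387% in LIGEL (median 0.325%). All IGEL and all LIGEL libraries thus lay below these 5 PBS libraries, while GEM overlapped them. The genes moved as a block from library to library. PBS replicate 2 was the highest of all 24 libraries for 40 of 42 genes, GEM replicate 4 the highest of its group for 40, and GEM replicate 1 the lowest of its group for 42. IGEL replicate 1 was the lowest of its group for 38 genes and LIGEL replicate 1 for 37.

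**Figure D1:**
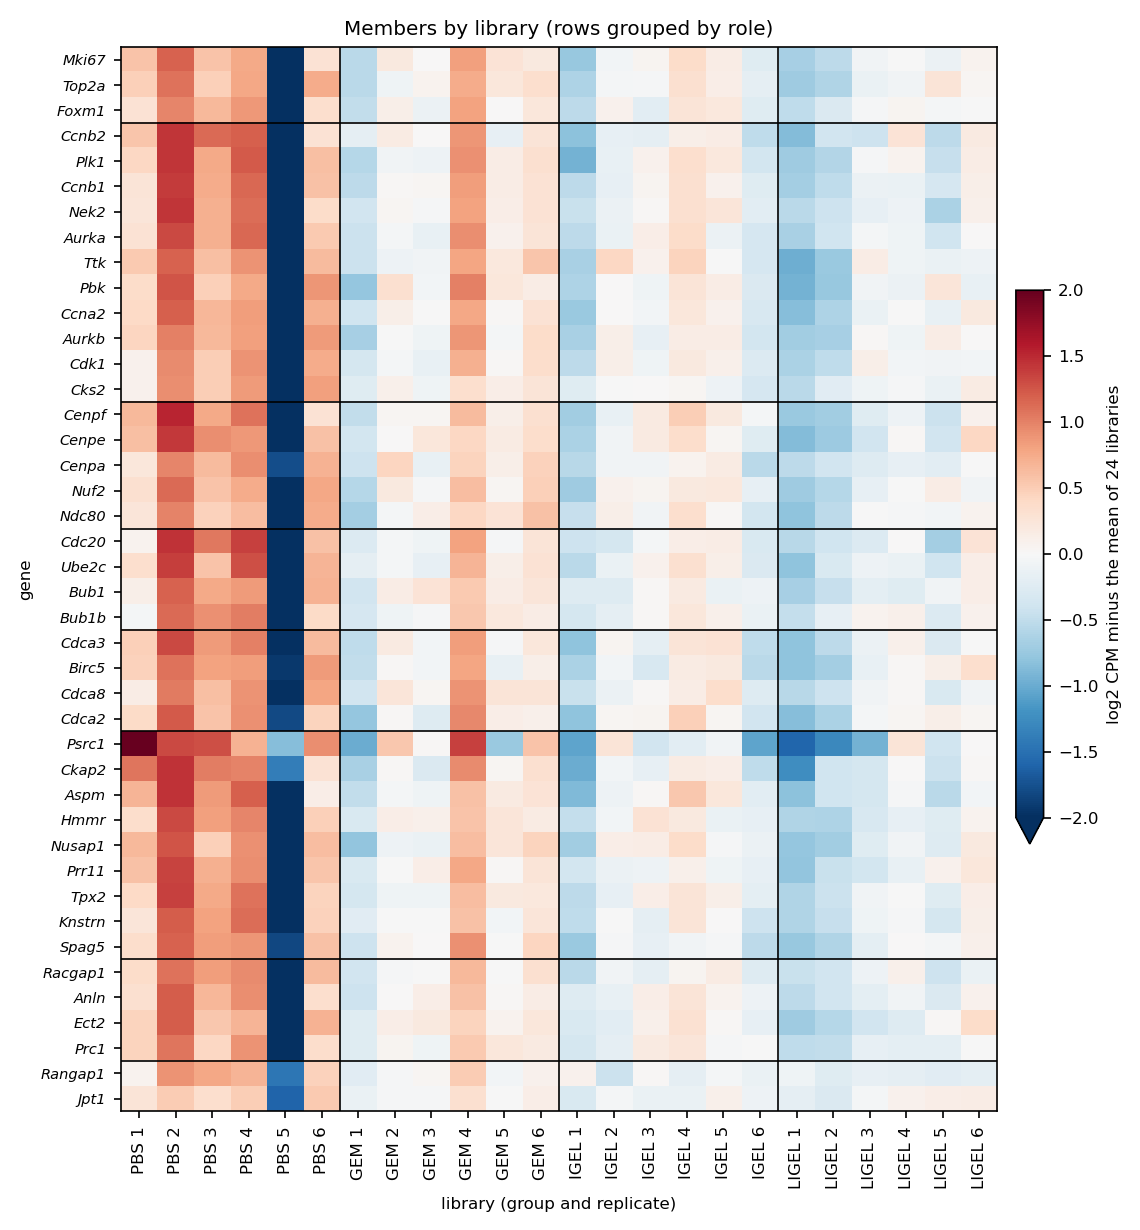
Log2 CPM (CPM, counts scaled to a common library size) of the 42 genes in the 24 libraries, each minus that gene's mean over the 24 libraries, with genes in rows grouped by role and libraries in columns grouped by treatment. The column of PBS replicate 5 is the darkest blue (values below -2 are drawn at the end of the scale), and the other 5 PBS columns and GEM replicate 4 are the reddest.

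A set of 6 libraries, GEM replicates 1, 2 and 3, IGEL replicate 1 and LIGEL replicates 1 and 2, stands under column names A1, A2 or A3 in the count table, and the labels do not say what these names mean. No PBS library is among them. Over the 42 genes, the median log2 difference from the mean of the 5 PBS libraries was -1.17 to -0.74 in the GEM libraries with these names and -0.65 to -0.06 in the other 3. IGEL replicate 1 stood at -1.33 and the other 5 IGEL libraries at -1.02 to -0.53. LIGEL replicates 1 and 2 stood at -1.43 and -1.27 and the other 4 at -0.93 to -0.68. In each treated group, then, every library with such a name lay below every library without one, and every one of the 18 treated libraries lay below the mean of the 5 PBS libraries.

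**Figure D2:**
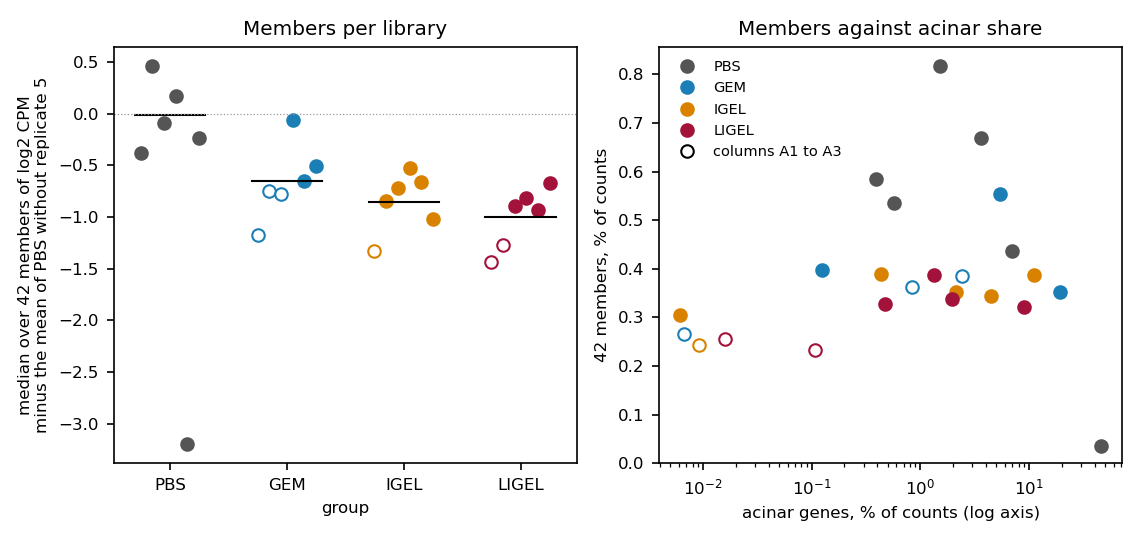
Left, for each library, the median over the 42 genes of log2 CPM minus the mean of the 5 PBS libraries without replicate 5, by group, with open circles for those under column names A1 to A3 and a bar at each group's mean (PBS without replicate 5). Right, the share of counts taken by the 42 genes against the share taken by acinar genes on a log axis. PBS replicate 5 sits alone at -3.20 on the left, and on the right at 45.8% acinar counts with 0.0364% in the 42 genes.

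The level of the 42 genes in the 5 PBS libraries spanned 6.33 to 111 CPM per kilobase. The length used is the union of all annotated exons of a gene, not that of a single transcript, which limits the ranking between genes. Cdc20 was highest, followed by Top2a, which untangles DNA, at 81.3, Jpt1 at 77.3, the ubiquitin-conjugating enzyme Ube2c at 66.2 and Ccnb2 at 55.8 CPM per kilobase. The checkpoint kinase Ttk was lowest, below the kinetochore gene Nuf2 (8.01) and Psrc1 (8.10). In LIGEL the same scale ran from 2.11 for Psrc1 to 57.0 for Jpt1, with Cdc20 next to Jpt1 at 47.3. Exons of 12 of the 42 genes overlap exons of another gene, for example 911 bases of Prc1 with Rccd1 and 592 bases of Ube2c with Tnnc2, both on the opposite strand. The strand setting of the counting is not given in the sources used here, so reads from such stretches cannot be told apart.

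Genes of this kind are known to share promoter elements. The cell cycle genes homology region, or CHR, is a short element near the start site that the DREAM and MMB complexes bind, and CCAAT boxes upstream of it bind the factor NF-Y. RefSeq start sites on GRCm38.p6 were found for 36 of the 42 genes, and windows of 250 bases before to 50 bases after the start were searched on both strands. The windows of 6 genes are shown because they carry the arrangement most of the 36 genes share, or, in the last, lack it. CHR (TTTGAA or TTCGAA) and CCAAT matches are in capitals, written as ATTGG or TTCAAA where the match is on the other strand.
Ccnb2: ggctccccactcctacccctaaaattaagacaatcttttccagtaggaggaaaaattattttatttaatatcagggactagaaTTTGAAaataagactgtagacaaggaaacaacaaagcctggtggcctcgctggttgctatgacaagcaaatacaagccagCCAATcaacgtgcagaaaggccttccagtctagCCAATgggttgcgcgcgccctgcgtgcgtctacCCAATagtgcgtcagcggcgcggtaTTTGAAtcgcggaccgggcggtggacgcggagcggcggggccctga
Cdc20: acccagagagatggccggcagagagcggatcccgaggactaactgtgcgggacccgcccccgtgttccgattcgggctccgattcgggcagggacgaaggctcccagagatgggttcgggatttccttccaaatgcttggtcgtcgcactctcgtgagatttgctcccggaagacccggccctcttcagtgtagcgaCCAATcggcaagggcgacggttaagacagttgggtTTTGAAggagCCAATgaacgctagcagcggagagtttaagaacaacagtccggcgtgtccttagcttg
Racgap1: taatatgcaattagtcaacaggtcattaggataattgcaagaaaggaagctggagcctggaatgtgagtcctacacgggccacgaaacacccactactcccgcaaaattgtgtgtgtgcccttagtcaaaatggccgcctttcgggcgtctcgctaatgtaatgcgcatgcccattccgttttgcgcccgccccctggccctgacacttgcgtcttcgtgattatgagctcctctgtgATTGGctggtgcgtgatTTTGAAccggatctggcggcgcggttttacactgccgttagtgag
Aspm: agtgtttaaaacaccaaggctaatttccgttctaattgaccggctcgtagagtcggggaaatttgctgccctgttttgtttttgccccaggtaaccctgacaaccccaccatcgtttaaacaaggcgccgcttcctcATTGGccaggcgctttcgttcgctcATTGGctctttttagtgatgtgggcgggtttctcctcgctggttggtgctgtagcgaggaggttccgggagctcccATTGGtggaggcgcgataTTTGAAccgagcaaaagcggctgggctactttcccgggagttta
Psrc1: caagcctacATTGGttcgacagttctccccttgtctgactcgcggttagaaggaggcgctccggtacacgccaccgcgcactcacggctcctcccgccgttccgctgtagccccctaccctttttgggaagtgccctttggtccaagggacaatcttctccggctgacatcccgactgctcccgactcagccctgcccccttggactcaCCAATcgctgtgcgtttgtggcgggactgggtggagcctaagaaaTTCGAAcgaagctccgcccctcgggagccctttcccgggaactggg
Knstrn: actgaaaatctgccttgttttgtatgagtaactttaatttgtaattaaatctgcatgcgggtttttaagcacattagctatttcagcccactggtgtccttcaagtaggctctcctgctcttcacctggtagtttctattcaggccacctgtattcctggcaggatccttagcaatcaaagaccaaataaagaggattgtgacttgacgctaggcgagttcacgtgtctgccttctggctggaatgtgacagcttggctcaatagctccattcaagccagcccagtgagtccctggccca

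The windows are those of Ccnb2 (chr9:70421505-70421804, minus strand), Cdc20 (chr4:118437294-118437593, minus strand), Racgap1 (chr15:99651607-99651906, minus strand), Aspm (chr1:139454523-139454822, plus strand), Psrc1 (chr3:108383554-108383853, plus strand, the first of its start sites) and Knstrn (chr2:118813753-118814052, plus strand). Ccnb2, which encodes a B-type cyclin, carries a CHR match from base 4 after the start and CCAAT boxes that begin 87, 54 and 21 bases before it. Another CHR match in its window has its first base at -167, upstream of the CCAAT boxes. In Cdc20 the CHR match begins 18 bases before the start, between CCAAT boxes that begin 53 and 8 bases before it. Racgap1 has a single match to each element, and Psrc1 carries the TTCGAA form, while Knstrn has neither element in its window.

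A CHR match was present in 27 of the 36 genes (75.0%), against 21.7% of 27025 genes with a window. CCAAT was present in 29 (80.6%) against 41.1%, and both elements together in 24 (66.7%) against 8.61%. The letters TTTGAA alone were found in 25 genes (69.4%), against 20.2% of all genes. One of 4 E2F octamers (TTTCCCGC, TTTGGCGC, TTTCGCGC or TTTGCCGC) was found in 1 gene, Cdk1 (2.78%), against 2.60%. Birc5, Knstrn, Nuf2 and Nusap1 had neither CHR nor CCAAT, and in 1 place a CHR and a CCAAT match overlapped. With 1 window per gene, the median first base of the 36 CHR matches was 3.5 bases from the start and that of the 76 CCAAT matches -67.5, negative values being before it. In LIGEL against PBS without replicate 5, the median log2 fold change was -1.01 for the 27 genes with a CHR match and -1.03 for the 9 without one.

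**Figure D3:**
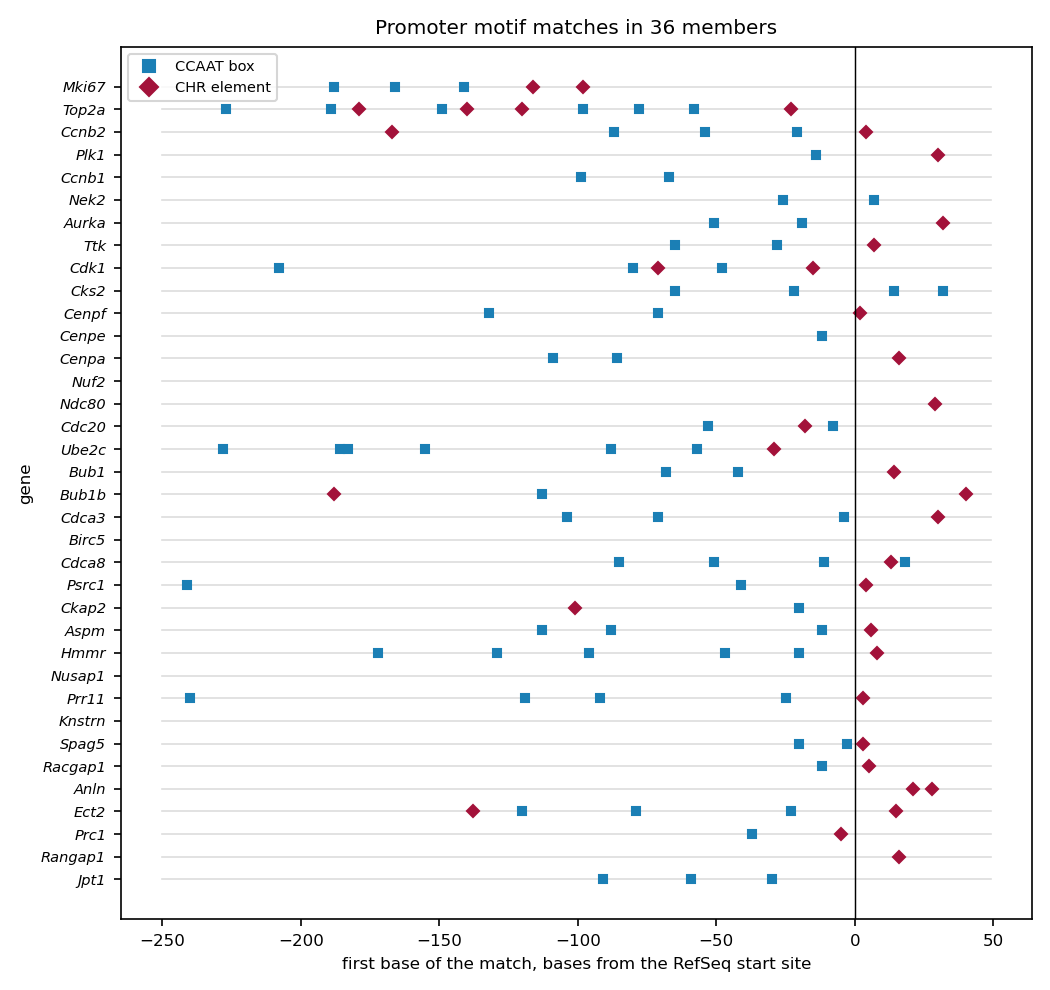
Positions of CCAAT boxes (squares) and CHR matches (diamonds) in the RefSeq promoter windows of 36 genes, 1 window each, in bases from the start site. CHR matches cluster around the start (28 of 36 lie from 100 bases before to 50 bases after it), with CCAAT boxes mostly upstream of them.

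The LIGEL group against PBS shows the clearest difference, in a list chosen with earlier results of these data known. Without PBS replicate 5, 41 of the 42 genes were lower in LIGEL by edgeR's quasi-likelihood test at a Benjamini-Hochberg adjusted p under 0.05 over 19525 genes, where 0.748% of all genes were called lower. All 42 had fitted values below 0, as had 51.9% of all genes. The median log2 fold change of the 42 was -1.01, against -0.013 for all genes tested, and the LIGEL mean of a gene was 26.1 to 73.7% of the mean of the 5 PBS libraries (median 49.7%). For 37 of the 42 genes all 6 LIGEL libraries lay below all 5 PBS libraries, as did 1.33% of all genes. The gene that was not called was Cdca2, which targets a phosphatase to chromosomes (log2 fold change -0.92 ± 0.25, adjusted p = 0.0925).

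With all 24 libraries, edgeR called 0 of the 42 genes and 0 of 19253 genes overall (0%). All 42 had fitted values below 0 (53.5% of all genes), at a median log2 fold change of -0.79 (all genes -0.029), and 33 had an unadjusted p under 0.05, against 14.2% of all genes for lower values. Adjusted p for the 42 ran from 0.124 to 0.512, and for none of them were the groups free of overlap (0.369% of all genes were, as lower), since PBS replicate 5 lay within or below the LIGEL range. On the same 24 libraries DESeq2 called 3 of the 42 lower, a share near its 5.31% of all genes. Limma voom with sample quality weights called 42, against 2.79% of all genes. Without PBS replicate 5 both called 42 of 42, against 2.29% of all genes by DESeq2 and 3.11% by voom. The edgeR calls without PBS replicate 5 fell to 0 of 42 (and 0 of 20036 genes) when the 6 libraries named A1 to A3 were left out too, with a median of -0.84. DESeq2 then called 41 (0.719% of all genes) and voom 42 (1.05%). All 4 remaining LIGEL libraries lay below the 5 PBS libraries for 37 genes. Leaving out LIGEL libraries cannot lower that count, and the share of all genes is not given for it. Leaving out single libraries gave 8 calls by edgeR without PBS replicate 2 (0.0704% of all genes lower), 20 without LIGEL replicate 1 (0.226%) and 24 without LIGEL replicate 2 (0.283%), with the median between -1.11 and -0.89 over all 11 libraries left out in turn.

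**Figure D4:**
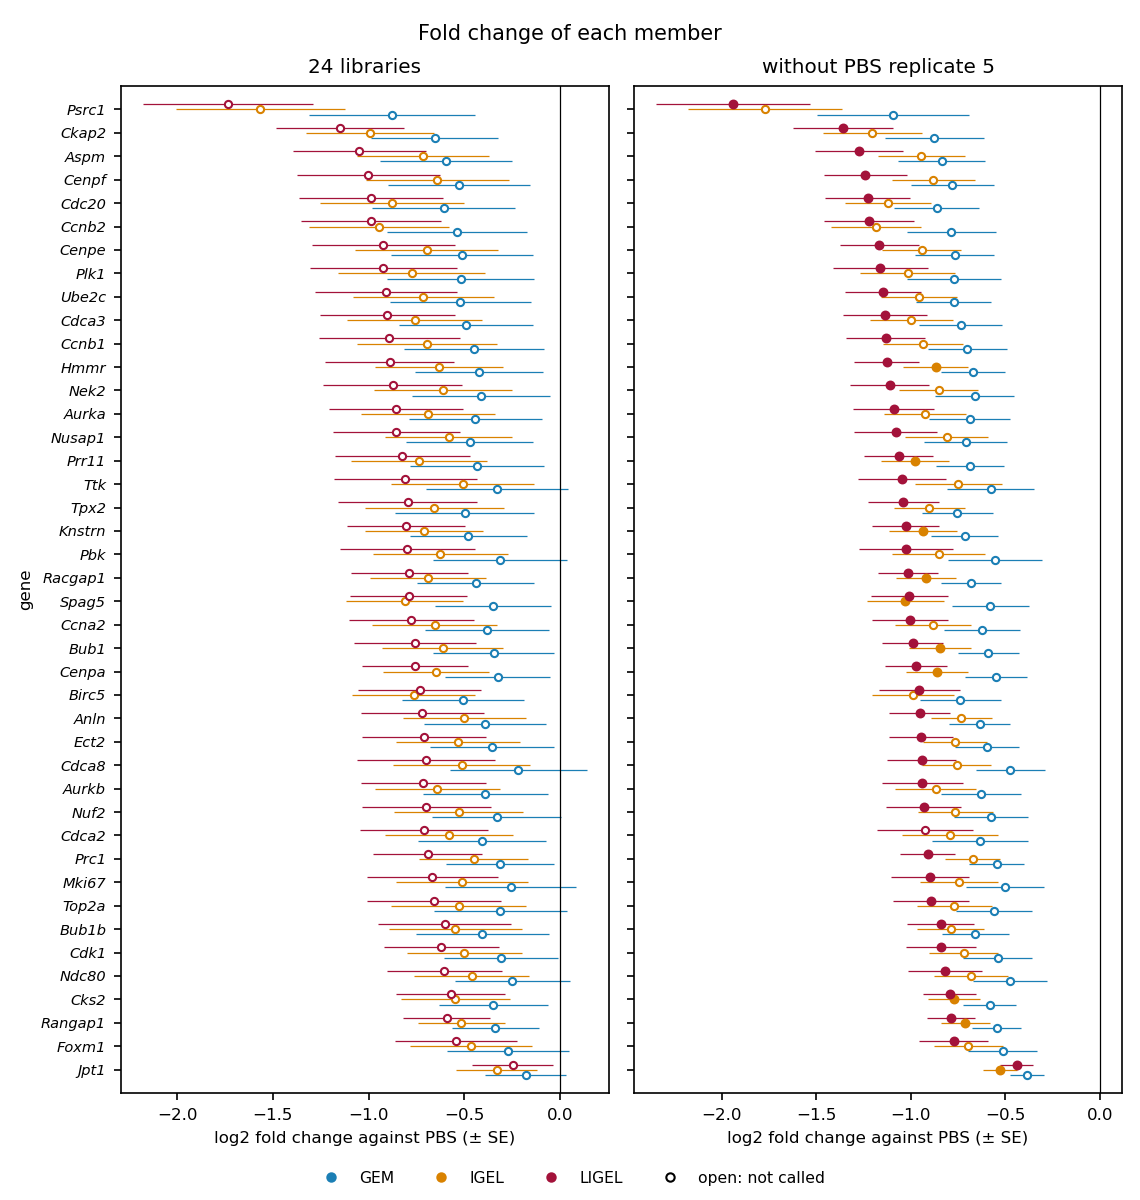
Log2 fold change against PBS of each of the 42 genes in GEM, IGEL and LIGEL, with bars of ± 1 SE, for all 24 libraries (left) and without PBS replicate 5 (right), with filled points for genes called by edgeR at an adjusted p under 0.05. Every point lies left of 0, no point is filled on the left, and on the right 41 LIGEL and 10 IGEL points are filled.

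By role, the calls and fold changes below are those of LIGEL against PBS without replicate 5. With all 24 libraries edgeR called 0 of the 42. Over all genes 0.748% were called lower, and for 1.33% all LIGEL libraries lay below the 5 PBS libraries. Cyclins, Cdk1 and the mitotic kinases fell together in LIGEL, with 11 of 11 called and log2 fold changes from -1.22 to -0.79 (median -1.05). Ccnb1, the main cyclin of mitotic entry, stood at 12.2 CPM in PBS replicate 5 and 103 to 226 CPM (median 144) in the other 5 PBS libraries, against 53.5 to 93.2 CPM (median 73.2) in LIGEL. The LIGEL libraries lay wholly below those 5 (log2 fold change -1.13 ± 0.21, adjusted p = 0.0123). Ccnb2, its close relative, had 8.11 CPM in PBS replicate 5 and 53.0 to 117 CPM (median 94.6) in the other 5 PBS libraries, against 23.8 to 52.1 CPM (median 32.7) in LIGEL. Its highest LIGEL library fell just short of the lowest of the 5 (log2 fold change -1.22 ± 0.24, adjusted p = 0.0147). Cdk1, the kinase both cyclins activate, stood at 17.6 CPM in PBS replicate 5 and 78.5 to 142 CPM (median 124) in the other 5 PBS libraries, against 47.8 to 80.0 CPM (median 70.9) in LIGEL. Here the ranges touched, with LIGEL replicate 3 above PBS replicate 1 (log2 fold change -0.84 ± 0.18, adjusted p = 0.0278).

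Plk1, the Polo-like kinase that matures centrosomes, had 9.39 CPM in PBS replicate 5 and 81.5 to 165 CPM (median 103) in the other 5 PBS libraries, against 37.4 to 67.6 CPM (median 52.3) in LIGEL (log2 fold change -1.16 ± 0.25, adjusted p = 0.0259). Aurka, the Aurora kinase of the spindle poles, was at 11.8 CPM in PBS replicate 5 and 80.2 to 163 CPM (median 107) in the other 5 PBS libraries, against 41.9 to 66.0 CPM (median 55.5) in LIGEL (log2 fold change -1.09 ± 0.21, adjusted p = 0.0151). Aurkb, the Aurora kinase of the chromosomal passenger complex, was at 14.3 CPM in PBS replicate 5 and 86.6 to 129 CPM (median 114) in the other 5 PBS libraries, against 39.8 to 71.3 CPM (median 62.3) in LIGEL (log2 fold change -0.94 ± 0.21, adjusted p = 0.0345). None of these 3 kinases overlapped between LIGEL and the 5 PBS libraries. The rest of this class fell by a similar measure: Nek2, which splits centrosomes, had a log2 fold change of -1.11 ± 0.21, the checkpoint kinase Ttk -1.05 ± 0.23 and the kinase Pbk -1.02 ± 0.25. Cyclin A2 (Ccna2) had -1.01 ± 0.20 and the Cdk1 partner Cks2 -0.79 ± 0.14, with Cks2 overlapping between the groups.

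All 5 centromere and kinetochore genes fell (log2 fold changes -1.24 to -0.82). Cenpf, a large protein that coats kinetochores in late G2, had 14.996 CPM in PBS replicate 5 and 126 to 298 CPM (median 175) in the other 5 PBS libraries, against 62.3 to 110.3 CPM (median 82.7) in LIGEL (log2 fold change -1.24 ± 0.22, adjusted p = 0.0102). Cenpe, the kinetochore motor that moves chromosomes to the spindle equator, was at 14.5 CPM in PBS replicate 5 and 162 to 290.0 CPM (median 197) in the other 5 PBS libraries, against 59.4 to 145 CPM (median 83.1) in LIGEL (log2 fold change -1.17 ± 0.21, adjusted p = 0.0103). Cenpa, the histone H3 variant of centromeres, was at 23.6 CPM in PBS replicate 5 and 94.1 to 158 CPM (median 130.0) in the other 5 PBS libraries, against 55.9 to 79.7 CPM (median 68.1) in LIGEL (log2 fold change -0.97 ± 0.16, adjusted p = 0.00837). LIGEL lay below the 5 PBS libraries for each of the 3. Nuf2 and Ndc80, arms of the microtubule-binding Ndc80 complex, had log2 fold changes of -0.93 ± 0.20 and -0.82 ± 0.20.

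The spindle checkpoint and the activators of anaphase fell as well, with 4 of 4 called without PBS replicate 5 (0.748% of all genes). Cdc20 was at 15.7 CPM in PBS replicate 5 and 109 to 284 CPM (median 216) in the other 5 PBS libraries, against 64.9 to 126 CPM (median 82.1) in LIGEL (log2 fold change -1.23 ± 0.23, adjusted p = 0.0118). Ube2c, the enzyme that starts ubiquitin chains for the anaphase promoting complex, was at 12.2 CPM in PBS replicate 5 and 116 to 238 CPM (median 147) in the other 5 PBS libraries, against 52.3 to 101 CPM (median 78.8) in LIGEL (log2 fold change -1.15 ± 0.20, adjusted p = 0.0102). Bub1, a checkpoint kinase at kinetochores, was at 10.6 CPM in PBS replicate 5 and 64.0 to 134 CPM (median 99.7) in the other 5 PBS libraries, against 37.4 to 64.6 CPM (median 50.6) in LIGEL (log2 fold change -0.99 ± 0.16, adjusted p = 0.00837). Ube2c did not overlap between the groups, whereas for Cdc20 LIGEL replicate 6 exceeded PBS replicate 1, and the Bub1 ranges barely overlapped. Bub1b, which encodes the checkpoint protein BubR1, overlapped too, at a log2 fold change of -0.84 ± 0.18.

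The 4 genes grouped here as chromosomal passenger complex and chromosome periphery, with Cdca3 placed among them and Aurkb counted with the kinases, all fell. Of the 4, 3 were called without PBS replicate 5 (0.748% of all genes). Cdca3, linked to entry into mitosis, was at 5.40 CPM in PBS replicate 5 and 40.9 to 73.3 CPM (median 53.1) in the other 5 PBS libraries, against 16.8 to 31.5 CPM (median 25.5) in LIGEL (log2 fold change -1.13 ± 0.22, adjusted p = 0.0147). Birc5, which encodes survivin of the passenger complex, was at 10.7 CPM in PBS replicate 5 and 56.1 to 87.3 CPM (median 72.9) in the other 5 PBS libraries, against 23.4 to 51.7 CPM (median 39.4) in LIGEL (log2 fold change -0.95 ± 0.22, adjusted p = 0.0332). Cdca2, the gene that missed the threshold, was at 11.1 CPM in PBS replicate 5 and 50.5 to 90.5 CPM (median 57.8) in the other 5 PBS libraries, against 21.6 to 41.9 CPM (median 38.8) in LIGEL. For all of these, Cdca2 included, the LIGEL libraries lay below the 5 PBS libraries. Cdca8, which encodes borealin of the passenger complex, had a log2 fold change of -0.94 ± 0.18.

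Genes of spindle assembly and spindle poles held the largest fold changes (-1.94 to -1.01), with 9 of 9 called without PBS replicate 5 (0.748% of all genes). Psrc1, which binds spindle microtubules, was at 5.61 CPM in PBS replicate 5 and 16.5 to 50.3 CPM (median 24.8) in the other 5 PBS libraries, against 3.33 to 12.1 CPM (median 6.48) in LIGEL (log2 fold change -1.94 ± 0.41, adjusted p = 0.0223). It had the largest change of the 42 and the largest standard error, and its highest library of all 24 was PBS replicate 1, which was low among PBS for most other genes. Ckap2, a microtubule-associated protein, was at 9.25 CPM in PBS replicate 5 and 29.6 to 66.3 CPM (median 49.7) in the other 5 PBS libraries, against 10.2 to 24.6 CPM (median 18.8) in LIGEL (log2 fold change -1.36 ± 0.26, adjusted p = 0.0147). Aspm, which organises spindle poles, was at 14.3 CPM in PBS replicate 5 and 68.7 to 172 CPM (median 114) in the other 5 PBS libraries, against 35.6 to 61.5 CPM (median 48.4) in LIGEL (log2 fold change -1.27 ± 0.23, adjusted p = 0.0107). Neither overlapped between LIGEL and the 5 PBS libraries. The other 6 had log2 fold changes of -1.13 ± 0.17 for Hmmr, -1.08 ± 0.22 for Nusap1, -1.06 ± 0.18 for Prr11, -1.04 ± 0.19 for the Aurora A activator Tpx2, -1.03 ± 0.18 for Knstrn and -1.01 ± 0.20 for its partner Spag5.

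Central spindle and cytokinesis genes fell with small standard errors, 4 of 4 called without PBS replicate 5 (0.748% of all genes). Anln, the anillin that scaffolds the cleavage furrow, was at 21.9 CPM in PBS replicate 5 and 157 to 292 CPM (median 199) in the other 5 PBS libraries, against 87.2 to 133 CPM (median 107) in LIGEL (log2 fold change -0.95 ± 0.16, adjusted p = 0.00837). Prc1, which bundles the microtubules of the central spindle, was at 17.2 CPM in PBS replicate 5 and 95.8 to 159 CPM (median 102) in the other 5 PBS libraries, against 52.8 to 75.3 CPM (median 66.1) in LIGEL (log2 fold change -0.91 ± 0.15, adjusted p = 0.00837). Racgap1, a subunit of centralspindlin, was at 24.6 CPM in PBS replicate 5 and 147 to 243 CPM (median 205) in the other 5 PBS libraries, against 83.8 to 122 CPM (median 95.8) in LIGEL (log2 fold change -1.01 ± 0.16, adjusted p = 0.00837). The groups did not overlap for these genes or for Ect2, which acts at the cleavage furrow (-0.94 ± 0.17).

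The proliferation marks Mki67 and Top2a and the transcription factor Foxm1, which drives G2 and M genes, were also called lower. Mki67, which coats mitotic chromosomes, was at 51.7 CPM in PBS replicate 5 and 371 to 689 CPM (median 452) in the other 5 PBS libraries, against 192 to 319 CPM (median 283) in LIGEL (log2 fold change -0.90 ± 0.21, adjusted p = 0.0357). Top2a was at 67.5 CPM in PBS replicate 5 and 616 to 935 CPM (median 738) in the other 5 PBS libraries, against 269.7 to 530.2 CPM (median 411) in LIGEL (log2 fold change -0.89 ± 0.20, adjusted p = 0.0315). Foxm1 was at 14.8 CPM in PBS replicate 5 and 96.3 to 155 CPM (median 124) in the other 5 PBS libraries, against 55.8 to 82.3 CPM (median 77.2) in LIGEL (log2 fold change -0.77 ± 0.18, adjusted p = 0.0463). The 3 genes did not overlap between LIGEL and the 5 PBS libraries. Rangap1, the activator of Ran's GTPase, which also has a task in interphase transport, was at 52.0 CPM in PBS replicate 5 and 148 to 265 CPM (median 227) in the other 5 PBS libraries, against 119.6 to 133 CPM (median 124) in LIGEL (log2 fold change -0.79 ± 0.13, adjusted p = 0.00837). Jpt1 was at 40.6 CPM in PBS replicate 5 and 147 to 178 CPM (median 174) in the other 5 PBS libraries, against 102 to 137 CPM (median 126) in LIGEL and had the smallest change of the 42 (log2 fold change -0.44 ± 0.09, adjusted p = 0.0178). LIGEL lay below the 5 PBS libraries for both.

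For marker genes of cell types, tumour epithelium included, edgeR called 0 genes of the 4 lists given here in LIGEL against PBS without replicate 5. The fitted values of some lists lay mostly to one side of 0. Ductal and tumour epithelium genes had fitted values below 0 for 13 of 16 (51.9% of all genes) at a median log2 fold change of -1.36. Of these, 8 had an unadjusted p under 0.05, against 9.97% of all genes for lower values. Their summed share was 0.0910 to 0.250% of counts in the 5 PBS libraries and 0.106 to 0.131% in LIGEL. Fibroblast genes had values below 0 for 12 of 12 (median -0.76, 5 with an unadjusted p under 0.05), with shares of 0.728 to 3.48% in the 5 PBS libraries and 0.630 to 1.40% in LIGEL. T and NK cell genes had values above 0 for 15 of 16 (median 0.64). In that list 1 gene had an unadjusted p under 0.05, against 5.39% of all genes for higher values. Summed shares were 0.00443 to 0.0150% in the 5 PBS libraries and 0.00591 to 0.0170% in LIGEL. The groups overlapped for the summed share of each of these lists. Acinar genes had values below 0 for 16 of 30 (median -0.12), and 42 of the 42 spindle and centromere genes were called lower with the acinar share as a covariate, against 1.15% of all genes. No marker was at 0 in every library, and Slc4a1 of the erythroid list and Mb of the muscle list were among those below 1 CPM in all 24. The part of these cell types, tumour epithelium included, in the result was not tested.

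In IGEL against PBS without replicate 5, 10 of the 42 genes were called lower, where edgeR called 0.0922% of all genes lower (18 of 19525). All 42 had a fitted value below 0 (50.7% of all genes), at a median log2 fold change of -0.87 (all genes -0.0043), and for 27 the IGEL libraries lay below all 5 PBS libraries, against 0.825% of all genes. The 10 were Cenpa (-0.86 ± 0.16), Bub1 (-0.85 ± 0.16), Cks2 (-0.77 ± 0.14), Racgap1 (-0.92 ± 0.16), Hmmr (-0.87 ± 0.17), Knstrn (-0.94 ± 0.18), Prr11 (-0.98 ± 0.18), Spag5 (-1.03 ± 0.20), Jpt1 (-0.53 ± 0.09) and Rangap1 (-0.71 ± 0.13, log2 fold change ± SE). Each had an adjusted p of 0.04995, just under the threshold, and the remaining 32 had 0.0539 to 0.196. The count was 0 when any of PBS replicates 2, 3 and 4 or of the 6 IGEL libraries was left out, 38 without PBS replicate 1 (3.07% of all genes lower), and 0 without the libraries named A1 to A3. The median stayed between -0.98 and -0.72 over the 11 libraries left out in turn. On all 23 libraries DESeq2 called 40 lower (1.34% of all genes) and voom 42 (2.33%). With all 24 libraries edgeR called 0 genes (0%), 12 of the 42 had an unadjusted p under 0.05 (9.25% of all genes for lower values), DESeq2 called 1 (0.26% of all genes) and voom 35 (1.59%). All 42 again had fitted values below 0 (52.9% of all genes), with a median of -0.63.

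GEM against PBS gave the smallest differences. Without PBS replicate 5, all 42 genes had fitted values below 0 (53.2% of all genes) at a median log2 fold change of -0.65 (all genes -0.016), but edgeR called 0 of them and 0% of all genes, with adjusted p from 0.597 to 0.932. All 42 had an unadjusted p under 0.05, against 3.55% of all genes for lower values, DESeq2 called 0 (0%) and voom 38 (1.57% of all genes), and voom called 0 when the libraries named A1 to A3 were left out. The groups were free of overlap for 2 genes, Cenpe and Ect2, named here after their values were seen, against 0.149% of all genes. Leaving out PBS replicate 1 gave 12 calls by edgeR, with 0.585% of all genes called lower. With all 24 libraries edgeR called 0, DESeq2 0 (0%) and voom 12 (0.312% of all genes), 0 of the 42 had an unadjusted p under 0.05 (2.89% of all genes for lower values), and all 42 had fitted values below 0 (53.5% of all genes) at a median of -0.41.

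Gene by gene, GEM and IGEL stood between PBS and LIGEL in most cases. Among cyclins and kinases, Ccnb1 had 59.7 to 154 CPM (median 92.0) in GEM and 60.1 to 107 CPM (median 83.4) in IGEL. Ccnb2 was at 38.1 to 80.1 CPM (median 45.8) in GEM and 24.4 to 47.9 CPM (median 38.3) in IGEL. Cdk1 was at 58.0 to 122 CPM (median 73.9) in GEM and 51.7 to 85.2 CPM (median 74.8) in IGEL. In GEM, replicate 4 stood out as high for each of these, and replicate 1 as low. Plk1 was at 41.2 to 115 CPM (median 63.2) in GEM and 31.6 to 77.6 CPM (median 60.1) in IGEL. Aurka was at 48.5 to 124 CPM (median 66.5) in GEM and 45.3 to 83.9 CPM (median 60.2) in IGEL. Aurkb was at 40.4 to 119 CPM (median 63.1) in GEM and 41.03 to 71.4 CPM (median 63.2) in IGEL. The IGEL libraries lay below the 5 PBS libraries for Aurkb, Ccnb2 and Plk1, and overlapped them for Ccnb1, Cdk1 and Aurka.

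Of the centromere genes, Cenpf had 74.3 to 161 CPM (median 110.2) in GEM and 64.1 to 146 CPM (median 109) in IGEL. Cenpe was at 84.4 to 145 CPM (median 124) in GEM and 70.0 to 138 CPM (median 108) in IGEL. Cenpa was at 60.0 to 110.1 CPM (median 97.3) in GEM and 54.8 to 90.2 CPM (median 76.3) in IGEL. Cenpe and Cenpa did not overlap between IGEL and the 5 PBS libraries, and Cenpf did. Cdc20 was at 85.5 to 180.3 CPM (median 101) in GEM and 77.5 to 114 CPM (median 92.6) in IGEL, Ube2c at 80.3 to 147 CPM (median 94.1) in GEM and 63.0 to 114 CPM (median 90.1) in IGEL. Bub1 was at 45.4 to 84.6 CPM (median 67.5) in GEM and 49.3 to 66.9 CPM (median 54.3) in IGEL. IGEL stayed below the 5 PBS libraries for Ube2c, and overlapped them for Cdc20 and Bub1. Cdca3 was at 20.5 to 52.5 CPM (median 31.1) in GEM and 16.7 to 35.6 CPM (median 28.1) in IGEL. Birc5 was at 29.1 to 70.8 CPM (median 40.6) in GEM and 26.3 to 46.7 CPM (median 36.2) in IGEL. Cdca2 was at 22.6 to 75.3 CPM (median 40.5) in GEM and 22.2 to 53.7 CPM (median 39.7) in IGEL. GEM replicate 4 again gave the top value for these 3 genes in its group.

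Among spindle genes, Psrc1 was at 5.03 to 26.1 CPM (median 12.5) in GEM and 4.84 to 12.1 CPM (median 8.24) in IGEL. Ckap2 was at 15.4 to 46.7 CPM (median 24.8) in GEM and 12.1 to 27.3 CPM (median 22.5) in IGEL. Aspm was at 44.5 to 94.3 CPM (median 66.3) in GEM and 33.9 to 91.2 CPM (median 61.3) in IGEL. Psrc1 and Ckap2 were lower in all IGEL libraries than in the 5 PBS libraries, and Aspm overlapped. Anln was at 94.5 to 188 CPM (median 133) in GEM and 106 to 149.997 CPM (median 125) in IGEL. Prc1 was at 63.8 to 108 CPM (median 82.1) in GEM and 59.0 to 89.7 CPM (median 74.4) in IGEL. Racgap1 was at 87.4 to 179 CPM (median 114) in GEM and 78.2 to 128 CPM (median 105) in IGEL. All 3 cytokinesis genes were below the 5 PBS libraries in every IGEL library. Mki67 was at 209 to 537 CPM (median 347) in GEM and 180.3 to 392 CPM (median 303) in IGEL. Top2a was at 306 to 743 CPM (median 492) in GEM and 289 to 555 CPM (median 433) in IGEL. Foxm1 was at 55.9 to 139 CPM (median 82.7) in GEM and 54.8 to 94.3 CPM (median 76.3) in IGEL. Of these, Mki67 alone overlapped between IGEL and the 5 PBS libraries. Rangap1 was at 121 to 201 CPM (median 142) in GEM and 105 to 150.3 CPM (median 133) in IGEL. Jpt1 was at 113 to 155 CPM (median 122.5) in GEM and 101 to 132 CPM (median 114) in IGEL. GEM overlapped the 5 PBS libraries for both, IGEL for Rangap1 alone.

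The treated groups share the PBS controls, so their values against PBS are set side by side here without a test of their likeness. For 39 of the 42 genes the fold change against PBS without replicate 5 was lowest in LIGEL, then IGEL, then GEM. The share of all genes in this order is not given. The 42 genes moved as a block from library to library, so the 39 are not separate observations. Tested directly without PBS replicate 5, the treated groups gave 0 calls in each comparison by edgeR (0% of genes). IGEL against GEM had a median log2 fold change of -0.21, with 42 of 42 below 0 (49.7% of all genes) and 1 gene, Spag5, at an unadjusted p under 0.05 (-0.45 ± 0.19), against 0.896% of all genes for lower values. LIGEL against GEM had a median of -0.38, with 42 of 42 below 0 (50.6% of all genes) and 14 at an unadjusted p under 0.05, against 3.17% of all genes. LIGEL against IGEL had a median of -0.14, with 39 below 0 (54.8% of all genes) and 0 at an unadjusted p under 0.05 (1.17% of all genes). Jpt1, Birc5 and Spag5 had fitted values above 0 there (0.09 ± 0.09, 0.03 ± 0.21 and 0.02 ± 0.19). These medians moved with single libraries. Without GEM replicate 4 the median was -0.086 for IGEL against GEM and -0.24 for LIGEL against GEM, and without IGEL replicate 1 it was -0.14 for IGEL against GEM. For LIGEL against IGEL it was -0.23 without IGEL replicate 1, -0.054 without IGEL replicate 4, -0.062 without LIGEL replicate 1 and -0.086 without LIGEL replicate 2.

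Other cell cycle genes were set beside the 42, in LIGEL against PBS without replicate 5. For every list below, the share of all genes called lower was 0.748%. The mitotic kinesins, motors that slide and cross-link spindle microtubules, came closest, with 11 of 12 called lower at a median log2 fold change of -1.02. Kif20a, a motor of the central spindle, was at 10.5 CPM in PBS replicate 5 and 81.2 to 175 CPM (median 133) in the other 5 PBS libraries, against 41.4 to 66.0 CPM (median 54.2) in LIGEL (log2 fold change -1.23 ± 0.21, adjusted p = 0.00929). The groups did not overlap for it. Kif18b had a log2 fold change of -1.14 ± 0.21 and Kif20b -1.02 ± 0.19. Of 41 further kinetochore and centromere genes 8 were called lower (median -0.74), among them Spdl1, which recruits dynein to kinetochores (log2 fold change -1.02 ± 0.19, adjusted p = 0.0127). Sgo1, the protector of centromeric cohesion, had -1.04 ± 0.21 and the checkpoint gene Mad2l1 -0.83 ± 0.17.

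Condensin and cohesin genes, which fold chromosomes and hold sister chromatids, had 7 of 18 called lower (median -0.51), against 0.748% of all genes. Espl1, the separase that cuts cohesin, was at 17.4 CPM in PBS replicate 5 and 106 to 188 CPM (median 160.4) in the other 5 PBS libraries, against 54.6 to 86.6 CPM (median 75.8) in LIGEL (log2 fold change -1.08 ± 0.20, adjusted p = 0.0118). It did not overlap between the groups, and Rad21 (-0.47 ± 0.09) and Ncapg (-0.91 ± 0.18) were called as well. DNA replication genes, expressed earlier in the cycle, had 1 of 37 called lower, the origin kinase regulator Dbf4 (log2 fold change -0.86 ± 0.19, adjusted p = 0.0287), at a median of -0.47. Rrm1 (log2 fold change -0.71 ± 0.18, adjusted p = 0.0597) and Uhrf1 (log2 fold change -0.68 ± 0.17, adjusted p = 0.0683) missed the threshold. Of the anaphase promoting complex and its regulators 1 of 17 was called, Cdc23 (log2 fold change -0.31 ± 0.07, adjusted p = 0.0323), at a median of -0.12, with Fzr1 at -0.44 ± 0.11 and Fbxo5 at -0.76 ± 0.20 not called.

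No gene was called among 16 G1 cyclins and CDK inhibitors (median -0.30) or 13 genes of the DREAM and MMB complexes (median -0.22). Over all genes 0.748% were called lower. The smallest p in the first list belonged to Cdkn2d (log2 fold change -0.41 ± 0.13, adjusted p = 0.149), with Cdkn2c at -0.71 ± 0.27 and Cdkn2b at -1.40 ± 0.59. In the second it belonged to Tfdp2 (log2 fold change -0.36 ± 0.09, adjusted p = 0.0618), with Lin54 at -0.62 ± 0.16 and Mybl2, which encodes B-Myb, at -0.87 ± 0.25. Per library, the median log2 difference of the 42 genes from the 5 PBS libraries minus that of the replication genes was -0.31 to 0.26 in those 5, -0.44 to -0.24 in GEM, -0.60 to -0.21 in IGEL and -0.75 to -0.33 in LIGEL. LIGEL lay below the 5 PBS libraries on this difference and GEM and IGEL overlapped them. In PBS replicate 5 it was -0.87, with the replication genes at -2.33.

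**Figure D5:**
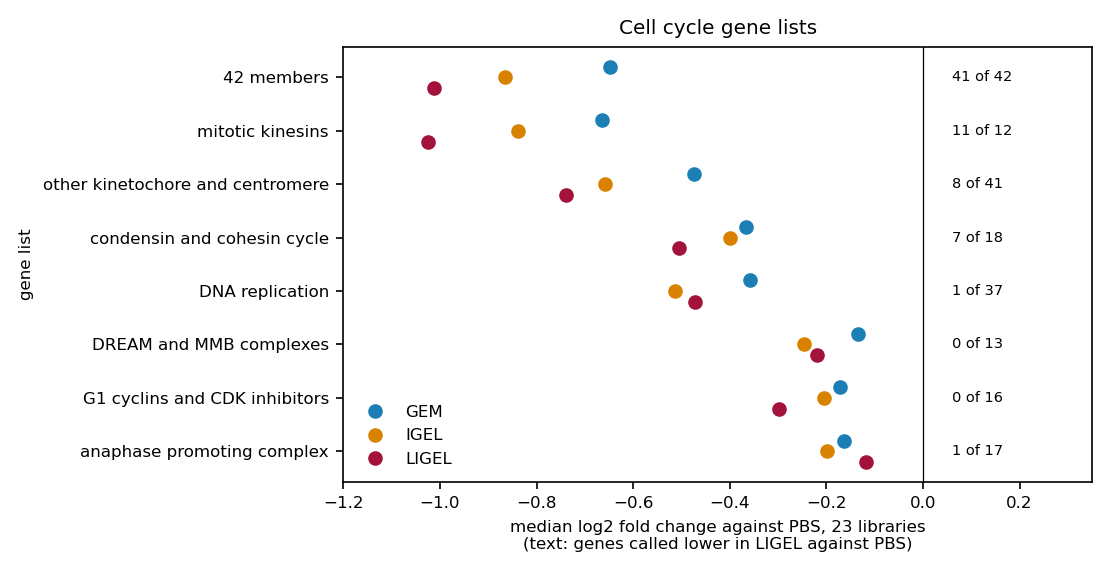
Median log2 fold change against PBS (23 libraries, without PBS replicate 5) of the 42 genes and of 7 other cell cycle gene lists in GEM, IGEL and LIGEL, with the number of genes called lower in LIGEL against PBS at the right. The 42 genes and the mitotic kinesins lie furthest left, near -1.0 in LIGEL, and the anaphase promoting complex lies closest to 0.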

How the data were processed

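RNA was sequenced from 24 mouse samples, and each sample is 1 column of a table of raw read counts per gene, which the authors deposited without normalization for 54532 genes. The submitters' processing notes name HISAT2, featureCounts, Subread and the build mm10. Versions, the annotation release and the strand setting are not given in the sources used here. All 42 genes have the coordinates of GENCODE mouse release M21.

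Tests were run with edgeR 4.0.16 under R 4.3.3. The filterByExpr step, at min.count 10 and min.total.count 15, passed 19253 genes over 24 libraries and 19525 over 23 (without PBS replicate 5). Libraries were scaled by TMM, 1 robust quasi-likelihood model held a mean per group, and each pair of groups was compared by the quasi-likelihood F test. Called means an adjusted p under 0.05 (Benjamini-Hochberg, over all genes tested). CPM uses the TMM-scaled totals of all 24 libraries, a prior count of 2 is added for log2 CPM, and fold changes are given ± SE. Library totals of 27.1 to 40.5 M counts set the counting error of each value, which Wilson 95% intervals describe for single libraries.

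Alternatives were DESeq2 1.42.0, voom with sample quality weights (limma 3.58.1), no expression filter, RLE scaling, library totals only, only the groups compared, a replicate block, the acinar share as a covariate, removal of or a term for the 6 libraries with count columns A1 to A3, and leaving out each library. DESeq2 and voom without those 6 libraries were added after seeing the data. The members and lists were chosen with earlier results of these data known. Values by group are printed for up to 3 members per role with the smallest p in LIGEL against PBS over all 24 libraries and for Mki67, Cdk1, Ccnb1, Aurka, Aurkb, Plk1, Cenpa and Foxm1, with the 3 genes of smallest p over 23 libraries from each other cell cycle list. Promoter windows and start sites are from RefSeq on GRCm38.p6. Some values of marker genes are not reported here.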

Additional observations from a re-analysis of the deposited data

Results flagged for a closer look

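In groups of 6 libraries, a value was singled out where its gap to the nearest other library exceeded Dixon's 95% critical share of the group's range. Of 180 groups examined 10 were flagged, and chance flags about 1 in 20. PBS replicate 5 was far below the other PBS libraries for Aurkb (14.3 CPM, others 86.6 to 129.2), Jpt1 (40.6 CPM, others 147 to 178) and Top2a (67.5 CPM, others 616 to 935). Its median log2 difference over the 42 genes was -3.20 (others -0.38 to 0.46), and 45.8% of its counts came from acinar genes (others 0.390 to 6.93%).

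GEM replicate 4 was far above the other GEM libraries for Birc5 (70.8 CPM, others 29.1 to 44.4), Ccnb2 (80.1 CPM, others 38.1 to 51.9) and Rangap1 (200.5 CPM, others 121 to 150.4). The acinar share stood apart in GEM replicate 6 (19.4%, others 0.00662 to 5.42%) and in LIGEL replicate 4 (8.89%, others 0.0158 to 1.95%).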

How the results depend on the processing

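The median log2 fold change of the 42 genes kept its sign in all 6 comparisons under every setting run. Of 546 alternative values for whole comparisons, 512 stayed within 1.5 times the count, or 1 SD of the median, that they are set against. That rule is a loose one: 0 calls set against 0 count as unchanged, and with 24 libraries the SD includes PBS replicate 5. No median counted as moved by it, although some moved by over 1.5 times, as given below. With 24 libraries, against PBS voom called 12 of 42 genes in GEM (0.312% of all genes lower), 35 of 42 in IGEL (1.59%) and 42 of 42 in LIGEL (2.79%). DESeq2 called 1 in IGEL (0.26%) and 3 in LIGEL, where 5.31% of all genes were called lower. Without PBS replicate 5, voom called 38 in GEM (1.57%). In IGEL the 10 calls became 40 with DESeq2 (1.34%), 42 with voom (2.33%), 37 with a term for the A1 to A3 libraries (0.517%) and 26 with the acinar covariate (0.318%). They became 0 with library totals only, without the expression filter, with the 2 groups alone and without the A1 to A3 libraries, where DESeq2 and voom, added after seeing the data, called 42 each (0.948 and 1.61%). In LIGEL the 41 calls became 0 without the A1 to A3 libraries. Whether replicate numbers pair the samples cannot be told from these values, and the main model uses no pairing. Of 36 same-number pairs 14 correlated above 0.1 (r from -0.59 to 0.71), and 6 of 24 libraries matched their own number best. With the replicate block 40 of the 42 genes were called in IGEL, where 170 of 19525 genes were called in either direction. In LIGEL 42 were called, and the share of all genes is not given for it.

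Leaving out each library gave 0 to 12 calls for GEM, 0 to 38 for IGEL and 8 to 41 for LIGEL against PBS without replicate 5, and 0, 0 to 10 and 0 to 41 from all 24. Over all genes tested, calls in either direction were 0 to 119, 0 to 692 and 15 to 521 without PBS replicate 5. From all 24 they were 0, 0 to 18 and 0 to 173. Reversals of single genes were looked for only in the comparisons against PBS, not between treated groups. They occurred in GEM against PBS with 24 libraries and a term for the A1 to A3 libraries: Mki67 (0.021), Ndc80 (0.016), Ttk (0.017) and Pbk (0.0042). Library totals alone moved the median of all genes in LIGEL against PBS (24 libraries) from -0.029 to 0.10, and the 42 genes were lower under that scaling too (median -0.76). The median moved by over 1.5 times in GEM against PBS with 24 libraries (-0.41), to -0.22 without PBS replicate 2, -0.65 without PBS replicate 5, -0.22 without the A1 to A3 libraries, -0.21 with a term for them and -0.78 with voom. Without PBS replicate 5 it moved in IGEL against GEM (-0.21), to -0.38 without the A1 to A3 libraries and -0.082 with voom, and in LIGEL against IGEL (-0.14), to -0.054 and -0.23. No PBS library carries an A1 to A3 name, so no value against PBS can be had within those libraries.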
